A study of Homo sapiens with 9 samples.

Results

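The genes described here are those of collagens, of the enzymes and the chaperone that modify and cross-link collagen, and of matrix proteoglycans. They were chosen by a rule on symbols, written with earlier results of these data known. It takes every collagen chain gene, LOX and LOXL1 to LOXL4, PLOD1 to PLOD3, SERPINH1, and the proteoglycan genes PRELP, DCN, LUM, BGN, FMOD, VCAN, HSPG2 and AGRN. The rule found 61 of the 56809 genes in the count table, made up of 44 collagen chains, 9 enzyme or chaperone genes and 8 proteoglycans. RNA was sequenced in bulk from MDA-MB-468, a long-established cell line from a human breast adenocarcinoma. The study held 3 groups of 3 libraries: cells with the empty plasmid pSicoR, a lentiviral vector for short hairpins (control), cells with the hairpin shLMO2-1, and cells with the hairpin shLMO2-2. A hairpin lowers transcripts that match it, and both carry the name of LMO2, a LIM-domain cofactor of transcription. No source used here says whether the 3 libraries of a group came from separate cultures, so p-values measure only the spread between these libraries, which may be technical.

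Collagens are built from chains of a few fixed partners that fold into triple helices in the endoplasmic reticulum. There the chains are hydroxylated on lysine by the PLOD enzymes and held by the chaperone SERPINH1, and after secretion the lysyl oxidases LOX and LOXL1 to LOXL4 cross-link them. Fibrillar collagens form the interstitial matrix, type IV collagen forms the mesh of the basement membrane, and proteoglycans such as agrin and perlecan join basement membranes to laminin and to cell surface receptors. Carcinoma cells lie on a basement membrane and make some of its parts themselves, while fibroblasts make most interstitial collagen.

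Library totals ran from 15494486 to 23069456 counts, and the shLMO2-2 libraries were the deepest. LMO2 had 4, 35 and 19 counts in control replicates 1 to 3, 2, 1 and 6 in shLMO2-1 and 1, 4 and 3 in shLMO2-2. In CPM, read counts scaled to library size, the shLMO2-2 libraries lay below all controls, and the shLMO2-1 libraries overlapped the controls. The log2 fold change of LMO2 was -2.44 for shLMO2-1 (adjusted p = 0.0907) and -3.02 for shLMO2-2 (adjusted p = 0.0441) by edgeR's quasi-likelihood test, and the latter call was lost when any 1 of 7 of the 9 libraries was left out (adjusted p = 0.062 to 0.138). The shLMO2-1 change passed without a filter on low counts, with a term for replicate number in the fit, and without control replicate 1. Control replicate 1 stood apart from the other controls on the first principal component, at -42.6 against -18.2 and -20.6. The 6 epithelial markers (EPCAM, CDH1 and 4 keratin genes) summed to between 7603 and 10744 CPM, so the libraries carried RNA of the labelled cell type. Of these markers 3 were called higher in shLMO2-2, and in shLMO2-1 1 was called higher and 1 lower. Both hairpins were compared with the same 3 control libraries. In bulk RNA, fewer cells of a kind and less RNA per cell cannot be told apart.

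A gene is called here when its adjusted p was under 0.05, with Benjamini-Hochberg adjustment over all 14709 genes tested. Of the 61 genes, 32 passed the filter on low counts and were tested, and 29 were not. In shLMO2-1, 10 of the 32 were called, 7 higher and 3 lower, where 8.42% of all tested genes were called (4.54% higher and 3.88% lower). In shLMO2-2, 7 were called, 3 higher and 4 lower, where the share over all genes was 8.97% (4.94% higher and 4.04% lower). For the mean of both hairpins 10 were called, 5 in each direction, where the share was 12.4% (6.47% higher and 5.93% lower). Between the hairpins 2 were called, both lower in shLMO2-2, where the share was 0.768% (0.347% higher and 0.422% lower). No tested gene of the 32 was called higher in shLMO2-2 than in shLMO2-1 by edgeR, 2 had an unadjusted p under 0.05 in that direction, and DESeq2 called 1 and limma-voom 0. The called genes were 31.2%, 21.9%, 31.2% and 6.25% of the 32 in the same order of comparisons. The median log2 fold change of the 32 was 0.07, -0.04 and -0.01 against control and -0.28 between the hairpins, and the median over all tested genes lay within 0.0021 of 0 each time. These shares describe the genes that passed the filter, which a gene can do through the group where it is high. With at least 10 counts required in every library, 24 of the 61 were tested, and 9, 5, 8 and 2 were called. Of all 13123 genes tested in that setting, 1299, 1320, 1944 and 108 were called.

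The changes ran in both directions and split by gene. COL13A1, COL12A1 and LOX rose in both hairpin groups, and COL4A5, COL4A1 and PRELP fell in both. The LOX call in shLMO2-1 was lost without any 1 of the 9 libraries, as was the COL4A1 call in shLMO2-2. COL5A2, HSPG2 and LOXL2 rose in shLMO2-1, and COL18A1 fell for the mean of both hairpins. COL8A2 was called higher in shLMO2-1 and for the mean, and COL4A4 lower in shLMO2-2 and for the mean. With total counts in place of TMM scaling, which shifted the median of all genes by -0.04 for shLMO2-1 and by -0.05 for shLMO2-2, the split was 6 higher and 4 lower in shLMO2-1, 3 and 5 in shLMO2-2 and 4 and 7 for the mean. Without control replicate 1, the counts were 5 higher and 5 lower in shLMO2-1, 4 and 4 in shLMO2-2, 6 and 5 for the mean, and 3 lower between the hairpins. Of all genes, 1342, 1401 and 2077 were called with total counts, and 1397, 1131, 1592 and 239 without control replicate 1.

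**Figure D1:**
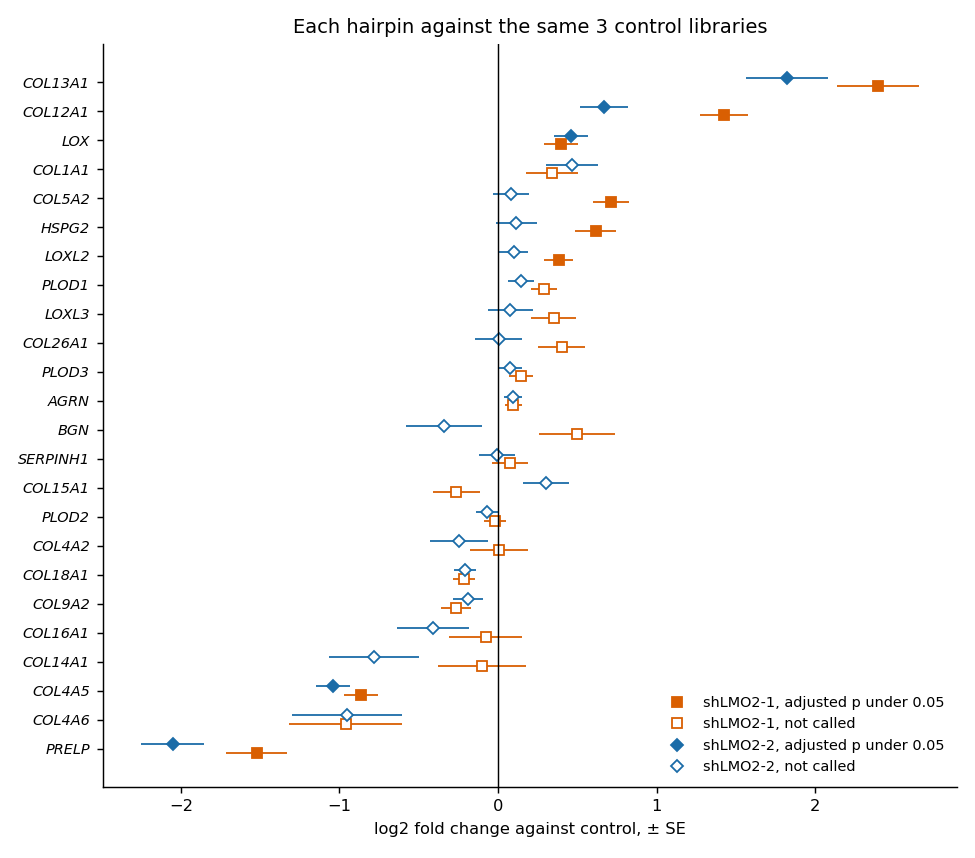
Log2 fold change against control (horizontal axis, with its standard error) of the 24 genes with a mean of at least 1 CPM, squares for shLMO2-1 and diamonds for shLMO2-2, filled where the adjusted p was under 0.05. COL13A1 lies farthest to the right, at 2.40 and 1.82, and PRELP farthest to the left, at -1.52 and -2.05.

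The sequences upstream of the 5 genes of at least 1 CPM that were called against control in each hairpin are shown side by side. Of these, COL13A1, COL12A1 and LOX rose, and COL4A5 and PRELP fell. RefSeq's promoter table (GRCh38.p14) held 45 of the 61 genes. Each stretch is given 5′ to 3′ on the strand of its gene and ends before the first annotated transcript base. Capitals mark CANNTG, the E-box letters, and GATA, each on either strand (GATA then reads TATC); overlapping matches were all counted. These letters were searched because LMO2 is known to sit in complexes with E-box and GATA factors. COL13A1 is at chr10:69801656-69801866 (plus strand), COL12A1 at chr6:75206054-75206303 (minus), LOX at chr5:122078361-122078509 (minus), COL4A5 at chrX:108439588-108439837 (plus) and PRELP at chr1:203475556-203475805 (plus).
COL13A1: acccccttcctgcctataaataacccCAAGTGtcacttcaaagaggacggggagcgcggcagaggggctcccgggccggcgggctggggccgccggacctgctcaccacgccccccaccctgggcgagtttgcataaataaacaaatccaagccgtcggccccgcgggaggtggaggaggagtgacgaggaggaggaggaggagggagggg
COL12A1: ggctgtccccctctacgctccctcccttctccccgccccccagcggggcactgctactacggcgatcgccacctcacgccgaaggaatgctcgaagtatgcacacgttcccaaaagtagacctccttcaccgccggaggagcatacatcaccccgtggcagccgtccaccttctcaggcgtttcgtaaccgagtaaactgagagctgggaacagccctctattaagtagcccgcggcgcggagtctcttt
LOX: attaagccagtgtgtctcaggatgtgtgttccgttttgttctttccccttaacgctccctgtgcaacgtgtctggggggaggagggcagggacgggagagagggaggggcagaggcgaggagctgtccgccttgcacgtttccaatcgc
COL4A5: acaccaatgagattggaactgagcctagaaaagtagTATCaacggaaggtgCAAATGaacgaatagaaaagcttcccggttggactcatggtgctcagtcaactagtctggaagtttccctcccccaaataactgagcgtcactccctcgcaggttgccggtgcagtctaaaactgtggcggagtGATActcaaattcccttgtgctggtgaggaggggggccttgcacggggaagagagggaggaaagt
PRELP: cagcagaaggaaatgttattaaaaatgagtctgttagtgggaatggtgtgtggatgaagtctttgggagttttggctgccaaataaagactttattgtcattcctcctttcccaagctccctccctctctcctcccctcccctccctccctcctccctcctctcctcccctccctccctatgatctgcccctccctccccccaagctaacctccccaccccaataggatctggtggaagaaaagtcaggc

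CANNTG occurred 1 time in the COL13A1 stretch of 211 bases and 1 time in the COL4A5 stretch of 250 bases, and GATA occurred 2 times in that of COL4A5. The stretches of COL12A1, LOX and PRELP held neither. Over 35116 RefSeq windows, CANNTG was in 61.8% at 250 bases, 56.5% at 211 bases and 45% at 149 bases, the length of the LOX stretch. GATA was in 45.6%, 41.6% and 34.2% at the same lengths. Among the 45 matched genes, windows of 250 bases held CANNTG in 42.2% and GATA in 33.3%. A match is a description of the letters, and nothing about binding was measured.

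Of the 61 genes, 24 had a mean of at least 1 CPM over the 9 libraries: 13 collagens, 7 enzyme or chaperone genes and 4 proteoglycans. Just inside that bound lay COL4A6 at 1.37 CPM, and just outside it COL4A1 at 0.883 CPM. Levels between genes are compared as CPM per kilobase of merged exons. AGRN, which encodes the heparan sulfate proteoglycan agrin, stood highest at 86.1 CPM per kilobase. SERPINH1 followed at 21.0, LOXL2 at 18.3, PLOD2 at 16.5, PLOD1 at 16.3 and PLOD3 at 12.9 CPM per kilobase. The ranges of SERPINH1, LOXL2, PLOD2 and PLOD1 over the libraries overlapped on this scale, so these ranges alone do not set their order. The genes were not compared library by library.

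Among collagens the highest was COL18A1, a basement membrane collagen whose C-terminal fragment is endostatin, at 9.08 CPM per kilobase. COL9A2 stood at 6.10, COL26A1 at 4.85, COL12A1 and COL15A1 at 3.49 each, COL4A5 at 2.55, COL5A2 at 2.21 and COL1A1 at 1.39 CPM per kilobase. Below 1 CPM per kilobase were COL4A2 (0.481), COL13A1 (0.401), COL16A1 (0.361), COL14A1 (0.267) and COL4A6 (0.148). Of the remaining genes, LOX stood at 3.16, LOXL3 at 1.80, HSPG2 at 1.68, PRELP at 0.943 and BGN at 0.818 CPM per kilobase. Where the longest transcript was used in place of merged exons, 9 of the 24 levels were over 1.5 times higher, with COL4A2 moving by 2.97 times to 1.43. In that scale PLOD2 stood at 32.9 and LOXL2 at 29.4, the reverse of their order by merged exons.

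**Figure D2:**
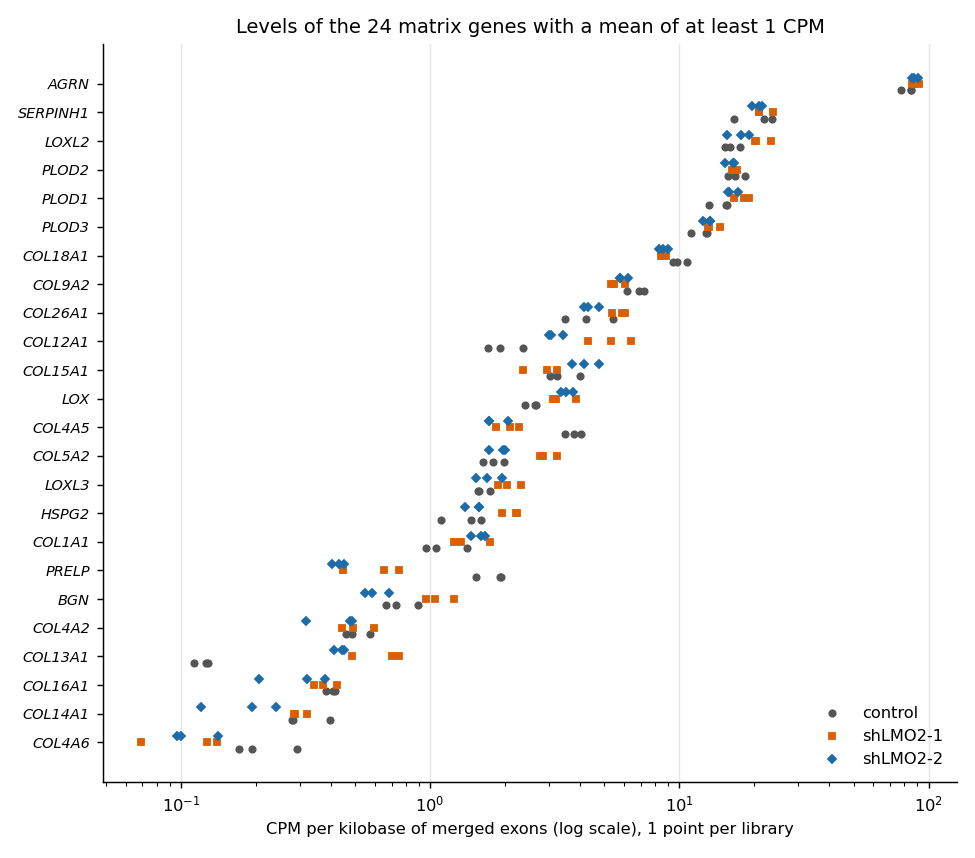
Level of the 24 genes in each library as CPM per kilobase of merged exons (log scale), with 1 point per library and a colour and marker for each group. AGRN, at a mean of 86.1, lies apart from all other genes, and the points of COL13A1, PRELP and COL4A5 separate the controls from both hairpin groups.

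The other 37 genes were under 1 CPM. No count in any library was found for 15 of them: COL2A1, COL3A1, COL5A1, COL6A1, COL6A2, COL6A5, COL6A6, COL9A1, COL11A1, COL19A1, COL20A1, COL22A1, COL25A1, LUM and VCAN. The remaining 22 had between 1 and 152 counts summed over the 9 libraries, and of these COL4A1, COL21A1, COL23A1, COL8A2, COL6A3, COL24A1, COL4A4 and COL11A2 passed the filter. DCN, the small proteoglycan decorin of connective tissue, had 5 counts in all and FMOD had 3. LOXL1 had 24 and LOXL4 had 7.

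Several chains were counted without the partner they are known to assemble with. COL1A1, the alpha-1 chain of type I collagen, had a mean of 13.6 CPM, while COL1A2 had 1 count in the 9 libraries. COL5A2 had a mean of 16.5 CPM, COL5A1 had no count and COL5A3 had 6 counts. COL9A2 had a mean of 25.7 CPM, COL9A1 had no count and COL9A3 had 53 counts. COL6A3 had a mean of 0.591 CPM, and neither COL6A1 nor COL6A2 had a count. Of the fibrillar chains COL3A1 and COL2A1 no transcript was counted either. These partner chains were picked out after their values were seen.

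Among the collagens that rose, COL13A1 encodes a transmembrane collagen of cell adhesion sites. It stood at 0.753, 0.666 and 0.739 CPM in the controls, at 4.16, 2.87 and 4.41 CPM in shLMO2-1, and at 2.65, 2.41 and 2.6 CPM in shLMO2-2. All 6 hairpin libraries were above all controls, and the lowest shLMO2-1 library was above the highest shLMO2-2 library. Group means were 0.719 ± 0.0469, 3.81 ± 0.828 and 2.56 ± 0.126 CPM (SD, n = 3), and the controls rested on 13, 13 and 14 counts. The log2 fold change was 2.40 (SE 0.26, adjusted p = 0.000387) for shLMO2-1 and 1.82 (SE 0.26, adjusted p = 0.00243) for shLMO2-2. The difference between the hairpins, -0.57 on the log2 scale, had an adjusted p of 0.372. Both calls held in every alternative.

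COL12A1 encodes a collagen that binds along the surface of type I fibrils, and it was the most abundant collagen among those that rose. Control levels were 29.3, 21.3 and 23.8 CPM, against 66.3, 80.1 and 53.6 CPM in shLMO2-1 and 38.0, 42.8 and 37.3 CPM in shLMO2-2. The 3 groups did not overlap, with shLMO2-2 between the controls and shLMO2-1. Means were 24.8 ± 4.09, 66.6 ± 13.3 and 39.4 ± 2.97 CPM (SD, n = 3). The log2 fold change was 1.43 (SE 0.15, adjusted p = 0.000387) for shLMO2-1 and 0.67 (SE 0.15, adjusted p = 0.0219) for shLMO2-2, and shLMO2-2 was lower than shLMO2-1 by the direct test (-0.76, SE 0.15, adjusted p = 0.041). For shLMO2-2 against control, significance was lost on leaving out control replicate 2 or 3 or any 1 of the shLMO2-2 libraries (adjusted p = 0.0543 to 0.0932). That between the hairpins was lost without control replicate 3, without shLMO2-1 replicate 1 or 2, without any 1 of the shLMO2-2 libraries (adjusted p = 0.0732 to 0.225), and with total-count scaling (adjusted p = 0.0519).

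COL5A2 encodes a chain of type V collagen, which takes part in starting type I fibrils. It stood at 14.8, 13.3 and 12.1 CPM in the controls, 24, 21.1 and 20.6 CPM in shLMO2-1 and 14.9, 14.6 and 12.9 CPM in shLMO2-2. The shLMO2-1 libraries lay above all others, and the shLMO2-2 libraries overlapped the controls. Means were 13.4 ± 1.34, 21.9 ± 1.84 and 14.1 ± 1.08 CPM (SD, n = 3). In log2 terms the change was 0.71 (SE 0.11, adjusted p = 0.00403) for shLMO2-1 and 0.08 (SE 0.11, adjusted p = 0.716) for shLMO2-2, and the difference between the hairpins was -0.63 (SE 0.11, adjusted p = 0.0298). The last call was lost without any 1 of the 6 hairpin libraries (adjusted p = 0.0561 to 0.145). For the mean of both hairpins the value was 0.40 (adjusted p = 0.0262), a call lost without control replicate 2 or 3 or without replicate 1 or 2 of either hairpin (adjusted p = 0.0507 to 0.116), and with total-count scaling (adjusted p = 0.0521).

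**Figure D3:**
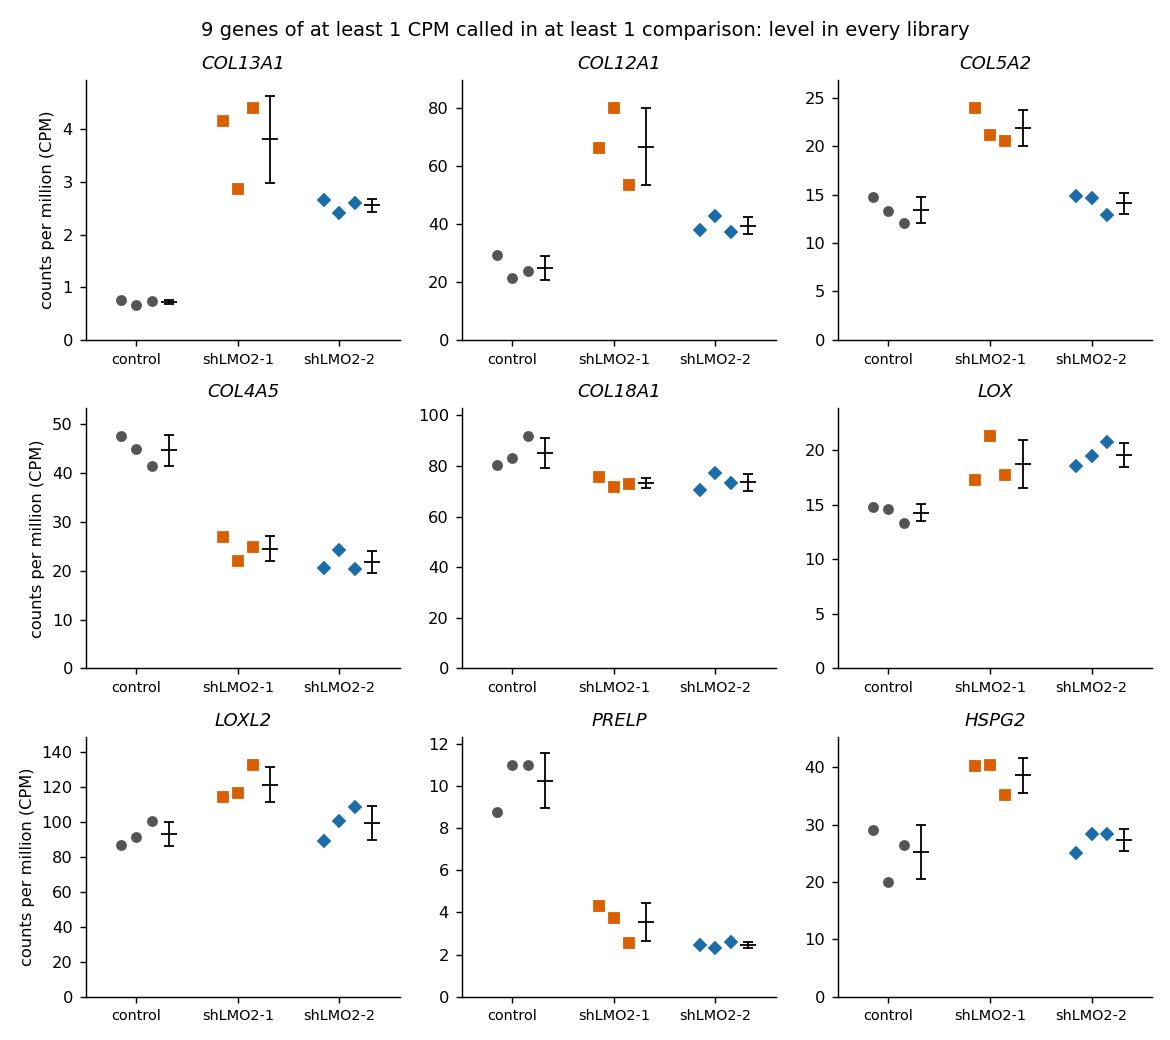
Level in CPM (vertical axes from 0, 1 point per library) of the 9 genes of at least 1 CPM that were called in any comparison, with the group mean and its SD (n = 3) beside the points. COL13A1, COL12A1 and LOX are higher in all hairpin libraries than in all controls, COL4A5, COL18A1 and PRELP lower, and COL5A2, LOXL2 and HSPG2 are higher in all shLMO2-1 libraries.

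Type IV collagen, the network-forming collagen of basement membranes, has 6 chain genes that lie in 3 pairs, head to head. RefSeq start sites are 126 bases apart for COL4A1 and COL4A2 on chromosome 13, 418 for COL4A4 and COL4A3 on chromosome 2, and 379 for COL4A6 and COL4A5 on the X chromosome. The COL4A5 stretch printed above covers part of the last of these intervals. COL4A5 was the most abundant of the 6 chains. It stood at 47.6, 45.0 and 41.4 CPM in the controls, 26.9, 21.9 and 24.8 CPM in shLMO2-1 and 20.5, 24.3 and 20.4 CPM in shLMO2-2. The hairpin groups overlapped each other and lay below all controls. Means were 44.7 ± 3.11, 24.6 ± 2.52 and 21.7 ± 2.24 CPM (SD, n = 3). COL4A5 fell by 0.86 on the log2 scale in shLMO2-1 (SE 0.11, adjusted p = 0.00093) and by 1.04 in shLMO2-2 (SE 0.11, adjusted p = 0.0003). Both calls held in every alternative.

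Its neighbour COL4A6, named because of the pairing after its values were seen, stood at 2.72, 1.59 and 1.80 CPM in the controls, 1.29, 0.644 and 1.19 CPM in shLMO2-1 and 1.30, 0.928 and 0.898 CPM in shLMO2-2. All hairpin libraries were below all controls. The log2 fold changes, -0.96 and -0.95, did not pass the test (adjusted p = 0.127 and 0.114), and that of the mean was -0.96 (adjusted p = 0.0564 by edgeR). The mean passed with DESeq2 (adjusted p = 0.0437), with no filter (adjusted p = 0.0433), with at least 10 counts in every library (adjusted p = 0.0352) and with total-count scaling (adjusted p = 0.0488). It also passed with a term for replicate number in the edgeR fit (adjusted p = 0.0271). COL4A5 took between 94.6% and 96.6% of the counts of the pair in the controls, 95.4% to 97.1% in shLMO2-1 and 94.0% to 96.3% in shLMO2-2, so these ranges overlapped.

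COL4A1 and COL4A2 encode the chains of the most widespread type IV network. COL4A1 had 26, 24 and 36 counts in the controls, 12, 6 and 6 in shLMO2-1 and 13, 14 and 15 in shLMO2-2, or 1.55 ± 0.338, 0.474 ± 0.175 and 0.629 ± 0.057 CPM (SD, n = 3). All hairpin libraries were below all controls in CPM, and COL4A1 was called lower in shLMO2-1 (adjusted p = 0.0208), in shLMO2-2 (adjusted p = 0.0446) and for the mean (adjusted p = 0.0101). The call in shLMO2-2 was lost without any 1 of the 9 libraries (adjusted p = 0.0548 to 0.162), with no filter (adjusted p = 0.0775) and with only the compared groups fitted (adjusted p = 0.0566). That in shLMO2-1 was lost without control replicate 3 or shLMO2-1 replicate 2 or 3 (adjusted p = 0.0881 to 0.0917), and that for the mean without control replicate 3 (adjusted p = 0.0663). COL4A2, named as the partner after its values were seen, stood at 8.86, 11.1 and 9.35 CPM in the controls, 8.54, 11.5 and 9.49 CPM in shLMO2-1 and 9.39, 9.18 and 6.15 CPM in shLMO2-2, and its groups overlapped. Its log2 fold change for the mean was -0.12 (adjusted p = 0.671). COL4A1 made up 9.96% to 16.9% of the counts of this pair in the controls, 2.97% to 7.32% in shLMO2-1 and 5.68% to 9.87% in shLMO2-2. COL4A2 shares exonic bases with the antisense genes COL4A2-AS1 and COL4A2-AS2, and its counts are uncertain for that reason.

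COL4A4, a chain of the specialised type IV network of kidney and other tissues, had 22, 20 and 14 counts in the controls, 4, 10 and 6 in shLMO2-1 and 5, 2 and 5 in shLMO2-2. In CPM these were 1.01 ± 0.268, 0.402 ± 0.18 and 0.178 ± 0.074 (SD, n = 3), and all hairpin libraries were below all controls. It was called lower in shLMO2-2 (adjusted p = 0.0145) and for the mean (adjusted p = 0.0128) but not in shLMO2-1 (adjusted p = 0.113). COL4A4 would not have passed the filter on low counts without the controls, where it was high. With at least 10 counts required in every library it was not tested. The shLMO2-2 call was lost without shLMO2-2 replicate 2 (adjusted p = 0.0684) and that for the mean without control replicate 1 (adjusted p = 0.0507). COL4A3 had 28 counts over the 9 libraries and was not tested.

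**Figure D4:**
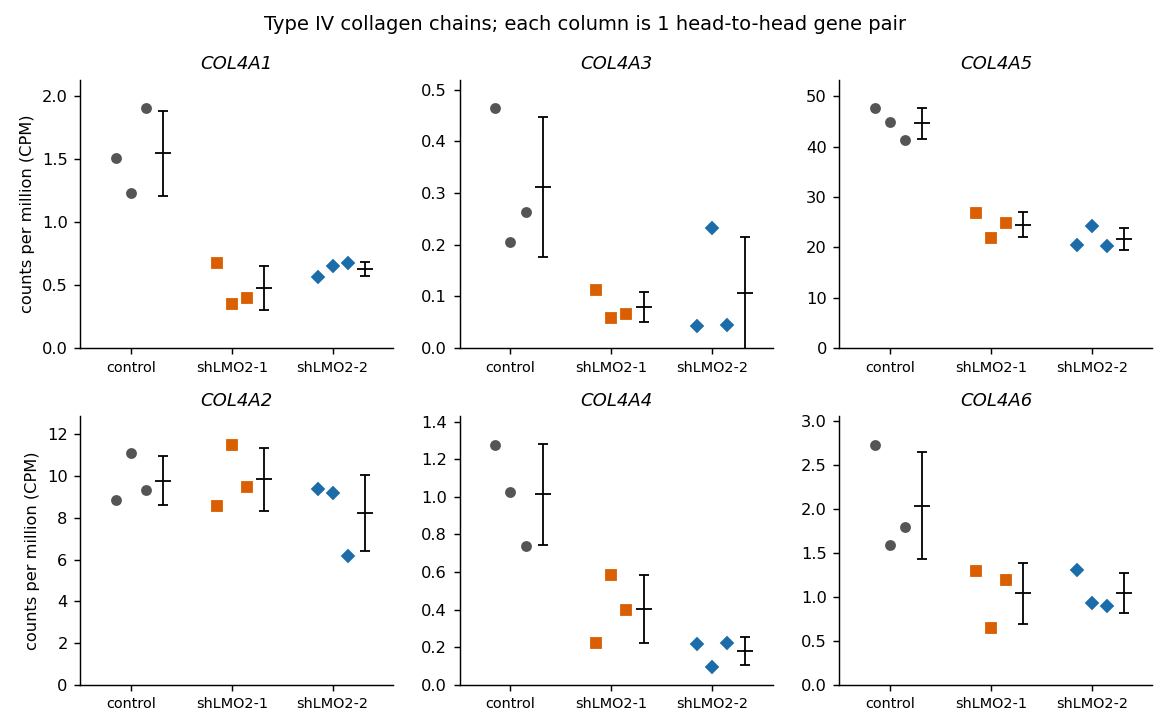
Level in CPM of the 6 type IV collagen chains (vertical axes from 0, 1 point per library, group mean and SD beside them, n = 3), with each head-to-head pair in 1 column. COL4A1, COL4A4, COL4A5 and COL4A6 are lower in all hairpin libraries than in all controls, COL4A2 overlaps, and COL4A3 rests on 28 counts in all; where its SD in shLMO2-2 reaches below 0 the bar ends at the axis.

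COL18A1 stood at 80.5, 83.3 and 91.9 CPM in the controls, 75.6, 71.9 and 72.8 CPM in shLMO2-1 and 70.4, 77.1 and 73.4 CPM in shLMO2-2. All hairpin libraries were below all controls, and the means were 85.2 ± 5.93, 73.4 ± 1.96 and 73.6 ± 3.35 CPM (SD, n = 3). Each hairpin alone gave -0.21 on the log2 scale and did not pass the test (adjusted p = 0.0843 and 0.0853), while the mean of both passed (-0.21, SE 0.06, adjusted p = 0.0404). This call was lost with no filter (adjusted p = 0.07) and without any 1 library except control replicate 1 (adjusted p = 0.0516 to 0.192), and the gene shares exonic bases with SLC19A1. COL8A2, a short-chain collagen, had 0, 6 and 2 counts in the controls, 19, 23 and 9 in shLMO2-1 and 21, 15 and 13 in shLMO2-2. It was called higher in shLMO2-1 (adjusted p = 0.0311) and for the mean (adjusted p = 0.0243), and had an adjusted p of 0.0618 in shLMO2-2. COL8A2 passed the filter on low counts only through the hairpin libraries, where it was high. With at least 10 counts required in every library it was not tested. The shLMO2-1 call was lost without control replicate 3, shLMO2-1 replicate 1 or 2 or shLMO2-2 replicate 2 (adjusted p = 0.056 to 0.115) and with only the compared groups fitted (adjusted p = 0.0627). That for the mean was lost without control replicate 1 or 3, shLMO2-1 replicate 2 or shLMO2-2 replicate 1 or 2 (adjusted p = 0.0502 to 0.1).

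Summed over the 44 collagen genes, levels were 271 ± 8.21, 289 ± 18.2 and 253 ± 13.4 CPM (SD, n = 3) in the controls, shLMO2-1 and shLMO2-2. Without COL12A1 and COL4A5, the sums were 202 ± 6.13, 198 ± 8.15 and 192 ± 8.96 CPM. The libraries of the control and shLMO2-1 groups overlapped in both sums.

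Of the lysyl oxidases, which form the cross-links of collagen and elastin, LOX rose in both hairpin groups. It stood at 14.8, 14.6 and 13.4 CPM in the controls, 17.3, 21.3 and 17.7 CPM in shLMO2-1 and 18.6, 19.5 and 20.7 CPM in shLMO2-2. All hairpin libraries were above all controls, with means of 14.3 ± 0.778, 18.8 ± 2.22 and 19.6 ± 1.10 CPM (SD, n = 3). The log2 fold change was 0.40 (SE 0.11, adjusted p = 0.0475) for shLMO2-1, 0.46 (SE 0.11, adjusted p = 0.026) for shLMO2-2 and 0.43 (adjusted p = 0.0157) for the mean. The call in shLMO2-1 was lost without any 1 of the 9 libraries (adjusted p = 0.0567 to 0.177), and with limma-voom, no filter, the compared groups alone, total-count or upper-quartile scaling (adjusted p = 0.0509 to 0.101). In shLMO2-2 it was lost without control replicate 3 or any 1 of the shLMO2-2 libraries (adjusted p = 0.051 to 0.101), and for the mean without control replicate 3 (adjusted p = 0.075). LOX shares exonic bases with SRFBP1.

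LOXL2, the most abundant lysyl oxidase gene here, stood at 86.9, 91.0 and 100 CPM in the controls, 114, 116 and 133 CPM in shLMO2-1 and 88.9, 101 and 108 CPM in shLMO2-2. The shLMO2-1 libraries lay above all others. Means were 92.7 ± 6.84, 121 ± 10.1 and 99.3 ± 9.80 CPM (SD, n = 3). LOXL2 had a log2 fold change of 0.38 (SE 0.09, adjusted p = 0.0277) for shLMO2-1 and 0.10 (adjusted p = 0.55) for shLMO2-2, and the hairpins differed by -0.29 (adjusted p = 0.253). The difference between the hairpins passed only with a term for replicate number in the fit. The shLMO2-1 call was lost without control replicate 1 or 2 or shLMO2-1 replicate 2 or 3 (adjusted p = 0.0523 to 0.1), and the gene shares exonic bases with ENTPD4 and AC090197.1. The summed level of the 5 lysyl oxidase genes was 114 ± 6.04, 149 ± 9.23 and 127 ± 10.3 CPM (SD, n = 3).

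The 4 genes of proteins that act inside the cell, SERPINH1 and PLOD1 to PLOD3, did not pass edgeR's test in any comparison. Of these, 1, 0, 1 and 0 had an unadjusted p under 0.05 in shLMO2-1, in shLMO2-2, for the mean and between the hairpins, DESeq2 called 1, 0, 0 and 0, and limma-voom called 0. SERPINH1 had a mean of 132 CPM, with libraries from 104 to 149 CPM. PLOD2 had a mean of 126 CPM, PLOD1 of 86.5 CPM and PLOD3 of 73.4 CPM. PLOD1, whose enzyme hydroxylates lysines within the triple helix, was higher in all hairpin libraries (83.3 to 101 CPM) than in all controls (69.9 to 82.4 CPM), with a log2 fold change of 0.29 for shLMO2-1 (adjusted p = 0.0563 by edgeR). It passed in that comparison with DESeq2 (adjusted p = 0.023), with no filter (adjusted p = 0.0278) and with at least 10 counts in every library (adjusted p = 0.048). With a term for replicate number in the edgeR fit it passed there (adjusted p = 0.0131) and for the mean (adjusted p = 0.0193). The PLOD1 to PLOD3 genes summed to 277 ± 5.20, 300 ± 13.3 and 282 ± 9.36 CPM (SD, n = 3).

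Of the proteoglycans, PRELP, a small leucine-rich protein that anchors basement membranes to connective tissue, fell furthest. It stood at 8.75, 11.0 and 11.0 CPM in the controls, 4.33, 3.75 and 2.57 CPM in shLMO2-1 and 2.48, 2.32 and 2.6 CPM in shLMO2-2. The hairpin groups overlapped each other and lay below all controls. Means were 10.2 ± 1.30, 3.55 ± 0.896 and 2.47 ± 0.143 CPM (SD, n = 3). PRELP fell by 1.52 on the log2 scale in shLMO2-1 (SE 0.19, adjusted p = 0.00108) and by 2.05 in shLMO2-2 (SE 0.20, adjusted p = 0.000217), and both calls held in every alternative.

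HSPG2 encodes perlecan, the large heparan sulfate proteoglycan of basement membranes. It stood at 29.1, 20 and 26.5 CPM in the controls, 40.1, 40.5 and 35.1 CPM in shLMO2-1 and 25.1, 28.4 and 28.3 CPM in shLMO2-2. The shLMO2-1 libraries lay above all others, and the shLMO2-2 libraries overlapped the controls. Means were 25.2 ± 4.67, 38.6 ± 2.99 and 27.3 ± 1.92 CPM (SD, n = 3). For HSPG2 the log2 fold change was 0.62 (SE 0.13, adjusted p = 0.0156) for shLMO2-1 and 0.12 (SE 0.13, adjusted p = 0.629) for shLMO2-2, and the hairpins differed by -0.50 (adjusted p = 0.127). That difference passed with DESeq2, with no filter, with only the compared groups fitted, and without control replicate 1 or 2. The shLMO2-1 call was lost without shLMO2-1 replicate 1 or 2 (adjusted p = 0.0547 and 0.0692), and the gene shares exonic bases with LDLRAD2.

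AGRN, the most abundant of all 61 genes at a mean of 927 CPM, had coefficients of variation within groups of 2.61% to 5.27%. Its libraries ran from 832 to 914 CPM in the controls, 925 to 981 CPM in shLMO2-1 and 923 to 972 CPM in shLMO2-2. All hairpin libraries were above all controls, but the log2 fold changes, 0.10 and 0.09, did not pass the test (adjusted p = 0.311 and 0.31). AGRN shares exonic bases with AL645608.5. In all, 15 genes of at least 1 CPM were called by edgeR in no comparison, with log2 fold changes from -0.96 (COL4A6) to 0.50 (BGN) in shLMO2-1 and from -0.95 (COL4A6) to 0.47 (COL1A1) in shLMO2-2. Of the 15, 5, 3, 4 and 4 had an unadjusted p under 0.05 in shLMO2-1, in shLMO2-2, for the mean and between the hairpins. DESeq2 called 1, 0, 1 and 1 of them, which were PLOD1, COL4A6 and COL15A1, and limma-voom called 0. COL9A2, at a mean of 25.7 CPM, was the most abundant collagen per kilobase among them.

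Other genes of the pathway came from 4 lists written from general knowledge, with earlier results of these data known. Of 26 genes of collagen maturation, 19 were tested and 5 were called in some comparison: 1 higher in shLMO2-1, 2 higher and 2 lower in shLMO2-2, 3 higher and 1 lower for the mean, and 1 lower between the hairpins. Over all tested genes, the shares called in either direction were 8.42%, 8.97%, 12.4% and 0.768% in the same order of comparisons. COLGALT1, which adds galactose to hydroxylysine, rose for the mean by 0.21 on the log2 scale (adjusted p = 0.0176). The prolyl isomerase gene PPIB rose by 0.31 (adjusted p = 0.0201), and BMP1, a protease that removes collagen propeptides, rose by 0.22 (adjusted p = 0.0243). MIA3, which helps load procollagen into transport carriers, fell by 0.25 (adjusted p = 0.0484). These 4 calls for the mean were lost without 3, 2, 5 and 7 of the 9 libraries, each in turn, with adjusted p from 0.0513 to 0.177. PPIB, BMP1 and MIA3 share exonic bases with other genes.

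P3H2, which hydroxylates proline at the 3 position and acts on type IV collagen, was the fifth gene called, and it is named after its values were seen. It stood at 8.46, 7.78 and 9.24 CPM in the controls, 10.5, 11.0 and 13.6 CPM in shLMO2-1 and 5.65, 4.87 and 4.31 CPM in shLMO2-2. The shLMO2-1 libraries lay above and the shLMO2-2 libraries below all controls. P3H2 fell by 0.78 on the log2 scale in shLMO2-2 (adjusted p = 0.0124), a call lost without any 1 of 3 libraries (adjusted p = 0.0507 to 0.0526), and had a log2 fold change of 0.46 in shLMO2-1 (adjusted p = 0.0868). Between the hairpins the difference was -1.24 (SE 0.15, adjusted p = 0.00346).

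Of 28 genes that make or sulfate the sugar chains of proteoglycans, 26 were tested and 7 were called. All were higher: 6 in shLMO2-1, 3 in shLMO2-2 and 7 for the mean. Over all tested genes, 4.54%, 4.94% and 6.47% were called higher in these comparisons. B3GALT6 and B3GAT3, which build the linker between protein and sugar chain, rose for the mean by 0.36 (adjusted p = 0.0068) and 0.32 (adjusted p = 0.0157) on the log2 scale. CHPF, of chondroitin chain growth, rose by 0.34 (adjusted p = 0.0139), and HS6ST2, a heparan sulfate sulfotransferase, by 0.89 (adjusted p = 0.038). The call of HS6ST2 for the mean was lost without any 1 of the 9 libraries (adjusted p = 0.0518 to 0.104) and that of B3GAT3 without either of 2 (adjusted p = 0.0554 and 0.0569). The B3GALT6 call in shLMO2-2 was lost without any 1 of the 9 libraries (adjusted p = 0.0551 to 0.155). That of CHPF in shLMO2-1 was lost without any 1 of 8 libraries (adjusted p = 0.0569 to 0.152). The median log2 fold change of the 26 was 0.15, 0.07 and 0.13 in the 3 comparisons with control.

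Of 10 collagen receptor genes 5 were tested, and edgeR called none in any comparison. Unadjusted p-values were under 0.05 for 1, 0, 2 and 0 of them in shLMO2-1, in shLMO2-2, for the mean and between the hairpins. DESeq2 called 1, 0, 1 and 0, and limma-voom called 0, 0, 1 and 0. Of 27 other proteoglycans 9 were tested and none was called by edgeR. Here 3, 0, 1 and 1 had an unadjusted p under 0.05, DESeq2 called 1 in shLMO2-1 and 0 elsewhere, and limma-voom called 0.

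Matrix genes are also products of fibroblasts and endothelial cells, so markers of other cell types were read in the same libraries. The 8 fibroblast markers, of which PDPN and POSTN had no count and 7 were under 1 CPM, summed to 4.35 to 6.13 CPM in the controls, 2.32 to 4.09 in shLMO2-1 and 1.39 to 1.96 in shLMO2-2. Of these FAP was called lower in shLMO2-2 and for the mean. The 5 endothelial markers, 2 of them under 1 CPM, summed to 7.17 to 13.9 CPM, 13.5 to 19.4 CPM and 8.57 to 11.2 CPM in the same order, and none was called. Most of this sum was KDR, at a mean of 8.42 CPM. Its shLMO2-1 libraries lay above all controls (log2 fold change 0.98, adjusted p = 0.0505 by edgeR), and its shLMO2-2 libraries overlapped them. Of the immune markers read here, CD3E had no count, and CD14 and CD68 were called higher for the mean. CD14 ran from 0.792 to 1.33 CPM in the controls, 1.93 to 3.56 in shLMO2-1 and 2.39 to 2.78 in shLMO2-2, and CD68 from 0.606 to 0.654, 1.16 to 2.12 and 1.14 to 1.77 CPM. The part of these genes in the changes of COL4A5, PRELP, COL13A1 and COL12A1 was not tested.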

How the data were processed

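RNA was measured in 9 libraries, 3 for each plasmid named in the labels. The authors deposited 1 table of estimated counts for 56809 genes by symbol, in which 11.7% to 12.8% of a library's values were not whole. Salmon 0.12, DESeq2 1.22.2 and GRCh38.p12 are named per the submitters' processing notes, without their roles. The use of strand is not given in the sources used here. Reads shared by overlapping genes may therefore be divided between them.

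Counts were rounded and tested with edgeR 4.0.16 (R 4.3.3): TMM scaling, filterByExpr (minimum count 10, total 15), which kept 14708 genes, LMO2 added back, and a quasi-likelihood fit of all 9 libraries by group with no covariate. The 14709 genes held 99.91% of counts. Adjusted p-values are Benjamini-Hochberg over these genes. Standard errors were derived from the fold change and its F statistic. CPM uses TMM-scaled totals, and lengths and coordinates of genes come from GENCODE 29 (GRCh38), matched by symbol. The test was tried on simulated data. Between libraries of 1 group the chi-square per gene was 4.98 to 28.5 (12366 genes), so none was treated as a copy of another.

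The genes and lists were chosen with earlier results of these data known. Genes of at least 1 CPM were described in detail. Those called in any comparison are named with all values, and of the others the 6 highest per kilobase are named. Called genes under 1 CPM are given by counts without a fold change. Each list names up to 4 called genes with the smallest p for the mean. Alternatives were DESeq2 1.42.0, limma-voom (limma 3.58.1), other scalings, other filters, an adjusted p under 0.01, only the groups compared, a replicate block, and leaving out each library. One marker gene is not reported here.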

Additional observations from a re-analysis of the deposited data

Results flagged for a closer look

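The effects of the hairpins differed by the direct test for 3 genes named here. COL12A1 was lower in shLMO2-2 than in shLMO2-1 by -0.76 on the log2 scale, with both groups above the controls. COL5A2 differed by -0.63, with shLMO2-2 at the level of the controls. P3H2 differed by -1.24, with the shLMO2-1 libraries above and the shLMO2-2 libraries below the controls.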

How the results depend on the processing

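Of 29 calls of the matrix genes, 12 were kept under each of up to 18 alternatives that could be run, 17 were lost under at least 1, and 0 changed direction. With 1 library left out, edgeR called 5 to 10 matrix genes in shLMO2-1, 3 to 8 in shLMO2-2, 5 to 11 for the mean and 0 to 3 between the hairpins, against 10, 7, 10 and 2. The same fits called 546 to 1397, 494 to 1243, 947 to 1592 and 38 to 239 of all genes. In the main fit these totals were 1239, 1320, 1823 and 113, so the totals moved as well. At an adjusted p under 0.01 the counts of matrix genes were 5, 3, 4 and 0, and the totals over all genes at this threshold are not given here. Between the hairpins, DESeq2 called 4 of the matrix genes, no filter 4 and total-count scaling 1. Over all genes these settings called 316, 378 and 118 between the hairpins, against 113 in the main fit. The cause was not tested. Fitting only the groups compared gives no value for the mean of both hairpins. COL18A1 between the hairpins, 0.0036 on the log2 scale, turned to -0.0022 with at least 10 counts in every library, -0.0077 with total counts, -0.015 and -0.0078 without shLMO2-1 replicates 2 and 3, and -0.0351 without shLMO2-2 replicate 2, within a range of -0.0351 to 0.0304 over the left-out libraries. HSPG2 in shLMO2-2 turned to -0.0267 without control replicate 2 (range -0.0267 to 0.22), and LMO2 between the hairpins to 0.45 without shLMO2-1 replicate 3 (range -1.002 to 0.45). With group means subtracted, same-numbered libraries correlated at -0.063 to 0.296, over 0.1 in 6 of 9 pairs. Of the 9 libraries, 5 correlated best with their own number in both other groups. Pairs of replicate 1 stood at 0.296, 0.234 and 0.251, and those of replicate 3 at 0.212, 0.14 and 0.204. Pairs of replicate 2 stood at -0.016, -0.063 and 0.052. Replicates 1 and 3 thus shared some variation by number across groups, for which the main fit has no term. Control replicate 2 also correlated with replicate 3 of shLMO2-1 (0.159) and of shLMO2-2 (0.182), so the shared variation did not follow the number alone. With the replicate block the counts of matrix genes were 11, 10, 15 and 4. Calls over all genes rose too, to 2214, 2377, 3024 and 257 from 1239, 1320, 1823 and 113. Genes under 1 CPM rest on few counts, so differences in them were often not detectable at this depth.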
